A study of Mus musculus with 55 samples.

Results

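The cell cycle and DNA replication genes are the transcripts that a cell makes when it copies its DNA and divides. A list of 36 such genes was followed in whole mouse lung on whole-genome Affymetrix mouse arrays, and a probe set counted for a gene only when the array's annotation gave it that single symbol. By this rule 35 of the 36 genes were measured, through 80 of the 45037 probe sets tested (18193 genes in all). Cyclin B1, Ccnb1, had no such probe set and has no value. Where a gene had more than 1 probe set, as 25 genes did, the brightest stood for it. All values are log2 robust multiarray average (RMA) intensities, so a difference of 1 is a doubling. The genes comprised 11 of DNA licensing and replication (Mcm2 to Mcm7, Cdc6, Pcna, Rrm1, Rrm2 and Tyms), 5 measured cyclins and their kinase (Ccne1, Ccne2, Ccna2, Ccnb2 and Cdk1), 8 mitotic kinases and checkpoint genes (Aurka, Aurkb, Birc5, Cdca8, Bub1, Bub1b, Plk1 and Ttk), 7 spindle and cytokinesis genes (Kif11, Kif20a, Kif23, Nusap1, Tpx2, Prc1 and Cenpa), 2 of mitotic exit (Cdc20 and Ube2c) and 2 of chromosome structure (Mki67 and Top2a).

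The lungs came from male C57BL/6 mice (the substrain C57BL/6J, per the study's methods) on 1 of 2 diets, the casein-based defined diet AIN-76A or a diet labelled LRD-5001, and each of the 55 arrays carried RNA from 1 mouse. On each diet there were control mice and mice given sodium arsenite for 5 weeks at 10 ppb in food, at 10 ppb in drinking water or at 100 ppb in drinking water. On AIN-76A there were 5, 5, 4 and 4 mice in these 4 groups, and on LRD there were 4, 5, 5 and 3. A second set of AIN-76A mice received 1 intraperitoneal injection 8 h before the lungs were taken, of saline, of dexamethasone (a synthetic glucocorticoid) at 1 mg/kg, of sodium arsenite at 1 mg/kg or of both, with 5 mice in each group. Mice within a group are named by the letter in their label.

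Cells in G1 load a ring of the Mcm2 to Mcm7 proteins onto replication origins with the help of Cdc6. Cyclin E and then cyclin A drive S phase, in which ribonucleotide reductase supplies nucleotides and Pcna clamps the polymerases to DNA. Cdk1 with B-type cyclins starts mitosis, the Aurora and Polo-like kinases build the spindle, and the checkpoint kinases hold Cdc20 back until the chromosomes are attached. These transcripts are made in waves, the replication genes largely under E2F and the mitotic genes under complexes that bind the CHR and CCAAT elements. The transcripts are therefore most abundant where cells divide. Adult lung turns over slowly, whereas the thymus, which lies against the heart and lungs, holds dense populations of dividing T cell precursors.

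The promoters of 2 licensing genes and 2 mitotic genes are shown because both kinds of element can be read in them. The window is the 250 bases before the RefSeq start on the gene's own strand, build GRCm38.p6. The capitals mark CCAAT, the CHR element as TTTGAA with its variant TTCGAA, and the E2F letters TTTCCCGC, TTTCGCGC, TTTGGCGC or TTTGCCGC, each searched on both strands, and where matches overlap the capitals run together. The windows lie at chr8:75109259-75109508 on the plus strand for Mcm5, and on the minus strand at chr1:128359706-128359955 for Mcm6, chr10:69352913-69353162 for Cdk1 and chr9:70421555-70421804 for Ccnb2.
Mcm5: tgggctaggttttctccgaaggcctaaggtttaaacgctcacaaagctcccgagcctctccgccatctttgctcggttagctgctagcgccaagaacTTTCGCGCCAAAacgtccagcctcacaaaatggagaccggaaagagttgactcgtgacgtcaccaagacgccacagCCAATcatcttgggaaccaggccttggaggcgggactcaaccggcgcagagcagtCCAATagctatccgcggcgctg
Mcm6: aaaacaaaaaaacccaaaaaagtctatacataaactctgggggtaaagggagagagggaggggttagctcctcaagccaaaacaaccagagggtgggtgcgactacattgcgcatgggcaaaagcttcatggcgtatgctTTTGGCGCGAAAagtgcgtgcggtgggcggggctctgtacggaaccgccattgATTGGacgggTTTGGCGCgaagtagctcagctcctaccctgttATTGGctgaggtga
Cdk1: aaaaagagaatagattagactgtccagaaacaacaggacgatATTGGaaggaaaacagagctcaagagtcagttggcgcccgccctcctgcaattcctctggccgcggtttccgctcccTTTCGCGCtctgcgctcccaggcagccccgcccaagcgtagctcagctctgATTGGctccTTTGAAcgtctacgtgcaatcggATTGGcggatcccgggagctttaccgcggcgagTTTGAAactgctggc
Ccnb2: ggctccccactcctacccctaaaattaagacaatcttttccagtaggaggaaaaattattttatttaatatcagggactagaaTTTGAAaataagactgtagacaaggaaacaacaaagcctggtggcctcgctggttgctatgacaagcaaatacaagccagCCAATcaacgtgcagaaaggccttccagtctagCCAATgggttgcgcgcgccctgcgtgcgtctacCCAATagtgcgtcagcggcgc

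A window was found for 30 of the 36 genes. CCAAT stood in 25 of them (83.3%), against 37.5% of the 27025 mouse genes with a window. The CHR letters stood in 11 (36.7%, against 19.6% of all genes), 9 of them among the 20 cyclin, kinase and mitotic genes and 2 among the 10 licensing and replication genes. The E2F letters stood in 5 (16.7%, against 2.16% of all genes), namely Cdc6, Mcm5, Mcm6, Mcm7 and Cdk1. In the 4 windows shown, Mcm5 and Mcm6 held E2F and CCAAT letters without CHR letters, Ccnb2 held CHR and CCAAT letters without E2F letters, and Cdk1 held all 3. These matches describe the letters in the window, and binding was not measured.

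Of the arrays, 3 (1 each of the AIN 100 ppb water, LRD 10 ppb water and arsenite injection groups) had narrow intensity distributions, with an SD over probe sets of 1.17 to 2.23 against 2.29 to 2.42 in the other 52, and were left out of the tests. The array of AIN 10 ppb water mouse E was also left out because it carried thymus transcripts, and the limma counts of the chronic comparisons are also given with it in the fit. This left 51 arrays. Lung identity was clear in all groups. The alveolar type II cell markers averaged between 12.70 and 12.90 and the airway markers between 9.75 and 9.98 in the group means. In bulk lung RNA, fewer dividing cells and less RNA per dividing cell cannot be told apart.

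In the 51 mice 21 of the 35 genes averaged above log2 5 and 14 below it, and 2 stayed under log2 4 in every mouse. Averaged over the 35 genes, the level lay between 5.09 and 5.84 (median 5.59) in 50 of these 51 mice, with saline mouse E higher at 6.26. On AIN-76A the mean was 5.65 ± 0.12 (SD, n = 5) in controls, 5.69 ± 0.11 (n = 5) with 10 ppb in food, 5.64 ± 0.23 (n = 3) with 10 ppb in water and 5.49 ± 0.15 (n = 3) with 100 ppb in water. On LRD all 4 groups lay at 5.65 to 5.66. After injection it was 5.57 ± 0.40 (n = 5) with saline, 5.38 ± 0.21 (n = 5) with dexamethasone, 5.65 ± 0.12 (n = 4) with arsenite and 5.51 ± 0.08 (n = 5) with both. Without mouse E the saline mean was 5.39 ± 0.13 (n = 4).

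**Figure D1:**
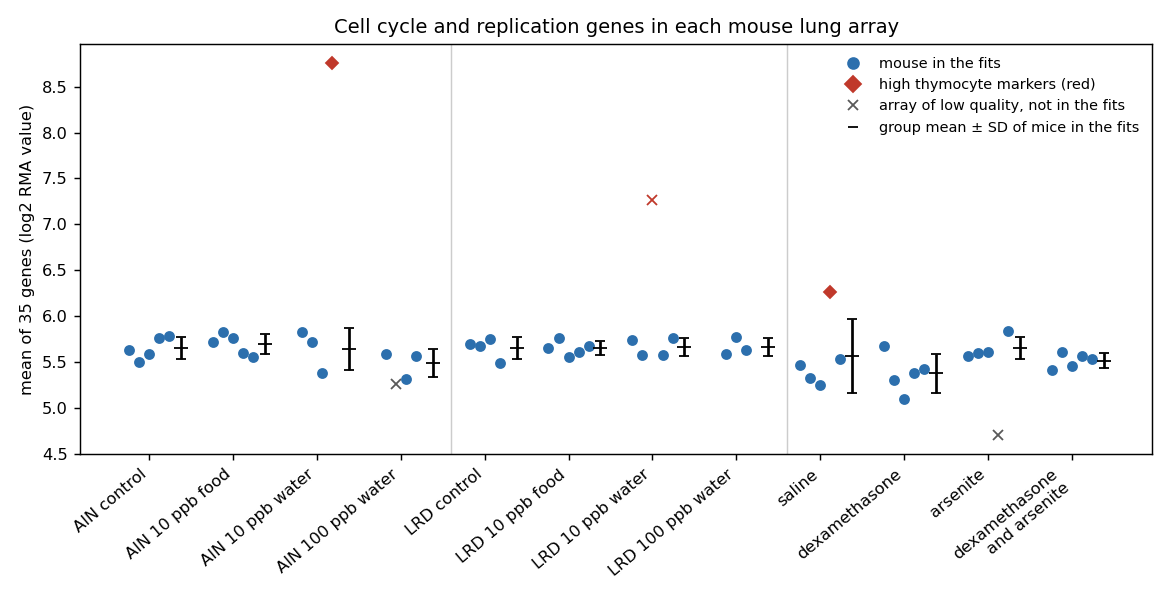
Mean log2 level of the 35 genes (y axis) in each mouse of the 12 groups (x axis), with a blue point for each mouse in the tests, a cross for each array of low quality, and the group mean ± SD beside the points. The 3 mice in red, with high thymocyte markers, stand at 8.76, 7.27 and 6.26, above every other mouse (5.09 to 5.84), and the grey cross at 4.7 is the arsenite array of low quality.

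The highest levels of these genes were those of 3 mice, and each of the 3 also had high levels of thymocyte markers. In AIN 10 ppb water mouse E all 35 genes exceeded every one of the 50 other mice, where 13.7% of all 18193 genes did so. The differences from the median of those mice were 0.46 to 4.64, with a median of 3.33, and the mean of the 35 genes reached 8.76. Mki67, the proliferation antigen, was at 10.51 in this lung against 4.91 to 6.62 in the 50 others. Rrm2, the S-phase subunit of ribonucleotide reductase, was at 10.88 against 4.79 to 7.07. Top2a, the topoisomerase that untangles replicated chromosomes, was at 10.44 against 4.92 to 6.76. Each of these values lay far above the highest of the other mice. Rag1 and Dntt, which rearrange and extend T cell receptor genes in the thymus, were at 11.49 and 11.69 there, against 2.57 to 4.69 and 3.29 to 4.49. The thymocyte list averaged 9.11 against at most 5.37 in the 50 others, 10 of its 11 markers and all 7 T cell markers exceeded the 50 other mice, and 6 of 7 alveolar type II markers lay below all of them.

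The excluded LRD 10 ppb water mouse C showed the same transcripts at a lower level. Its 35-gene mean was 7.27, and 30 of the 35 genes exceeded the 50 other mice, where 16.2% of all genes did. The 5 that did not were Mcm4, Tyms, Bub1, Kif20a and Nusap1. Cdk1, the mitotic kinase, was at 7.94 against 4.73 to 6.06 in those mice, and Mki67 at 8.78. Rag1 was at 9.02 and Dntt at 10.40, and the thymocyte list averaged 7.68. In saline mouse E, which stayed in the tests, 23 of the 35 genes exceeded the 50 other mice, where 3.96% of all genes did, and the median difference was 0.53. Mcm5, a subunit of the replicative helicase, was at 7.73 against 5.47 to 7.52, Mki67 at 6.99 and Top2a at 7.52. Rag1 stood at 9.98 and Dntt at 9.24 in this mouse, the thymocyte list averaged 7.62, and 4 of 5 fat markers and 2 of 7 B cell markers also exceeded all 50 others. Thymus was not a labelled tissue of the study, and how its transcripts came to these 3 lungs was not tested.

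**Figure D2:**
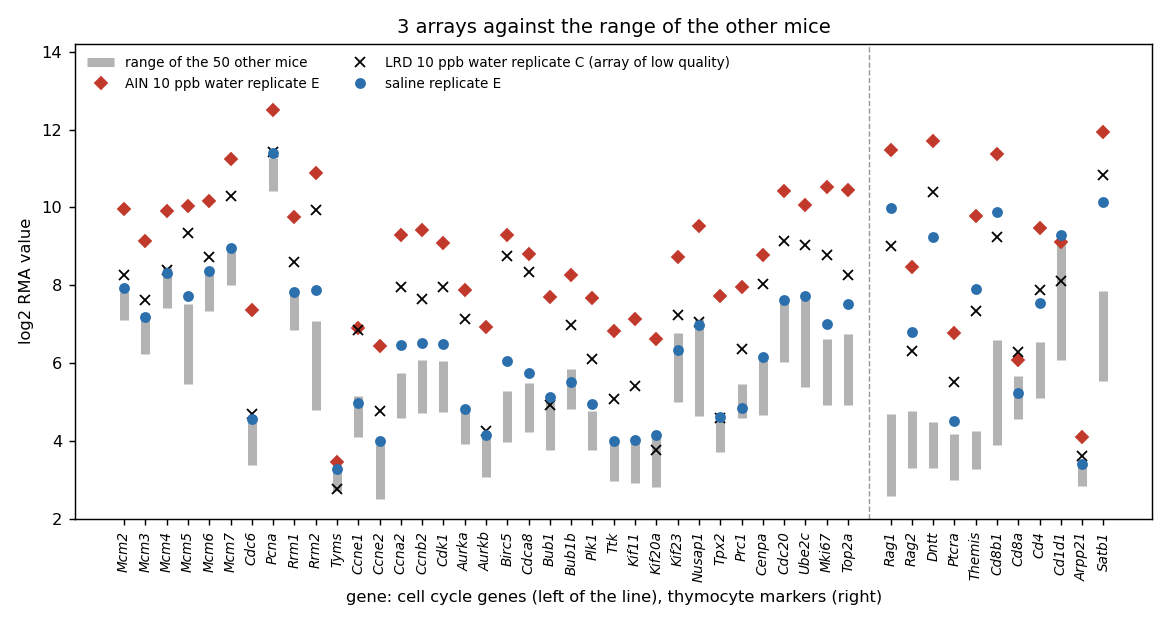
Log2 level (y axis) of each of the 35 genes and of 11 thymocyte markers (x axis, left and right of the dashed line) in the 3 mice with high thymocyte markers, over grey bars that span the 50 other mice. The red diamonds of AIN 10 ppb water mouse E stand above all 35 grey bars, the crosses of LRD 10 ppb water mouse C above 30 and the blue points of saline mouse E above 23.

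The first comparison asked what 8 h of dexamethasone did to these genes. Values leaned lower with dexamethasone, in 29 of the 35 genes, but none passed the test, and much of the lean rested on saline mouse E. Mcm5 was at 6.58, 6.43, 6.44, 7.73 and 6.99 in saline mice B, C, D, E and F, and at 6.96, 6.11, 5.47, 6.05 and 6.09 in dexamethasone mice A, B, C, E and F. Of the 5 dexamethasone mice, 4 lay below every saline mouse and mouse A lay within the saline range, so the groups overlapped. The difference was -0.70 (SE 0.23, limma adjusted p = 0.26). A second Mcm5 probe set differed by -0.64 (SE 0.19, limma adjusted p = 0.18), and the remaining, dim one by -0.0034.

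Mcm6, its partner in the helicase ring, was at 8.10, 7.90, 7.57, 8.37 and 7.91 in the same saline mice, and at 7.85, 7.39, 7.35, 7.61 and 7.66 in the dexamethasone mice. The groups overlapped through saline mouse D, and the difference was -0.40 (SE 0.12, limma adjusted p = 0.20). It passed without saline mouse D (-0.50, limma adjusted p = 0.046) and in 1 fit over all 12 groups (-0.40, SE 0.10, limma adjusted p = 0.018). Cdc6, which loads the ring, was at 3.69 to 4.55 with saline and 3.39 to 3.80 with dexamethasone. The difference was -0.45 (SE 0.13, limma adjusted p = 0.17), and the only Cdc6 probe set was dim (mean 3.97 over the 51 mice). Rrm2 differed by -0.61 (SE 0.33) and Top2a by -0.59 (SE 0.30). Both ranged widely with saline, Rrm2 from 5.62 to 7.87 and Top2a from 5.43 to 7.52, with mouse E the highest of each.

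By limma 0 of the 35 genes passed an adjusted p of 0.05 for dexamethasone against saline, where 0.626% of all probe sets did. At an unadjusted p under 0.05 there were 5, Mcm3, Mcm5, Mcm6, Cdc6 and Kif23, all lower. Of all probe sets 9.05% were under it, and of all genes, read by their brightest probe set, 11.8% were. Kif23, a kinesin of the dividing midzone, differed by -0.51 (SE 0.19). The rank product, which the study used at p under 0.05, was run here at a false-positive share under 0.05. By it Mcm5 alone of the 35 passed, lower with dexamethasone, with a false-positive share of 0.047. The rank product called 2.34% of all probe sets higher or lower. No gene of the 35 had groups that did not overlap, against 2.94% of all genes. The median difference was -0.14, against -0.0052 over all genes, and 32 of the 35 confidence intervals lay within 1 of 0. With saline mouse E left out, 18 genes were higher and 17 lower and the mean difference was -0.02 in place of -0.19. Mcm5 then differed by -0.48 (SE 0.20), Mcm6 by -0.30 and Rrm2 by -0.22, with limma adjusted p values of 0.42, 0.35 and 0.85. Neither limma nor the rank product called any of the 35 then, against 0.386% and 2.19% of all probe sets, and 6 were under an unadjusted p of 0.05 (10.2% of all probe sets).

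By role, the 11 licensing and replication genes averaged 6.98 ± 0.35 with saline (n = 5, SD), 6.77 ± 0.25 with dexamethasone (n = 5), 7.04 ± 0.06 with arsenite (n = 4) and 6.90 ± 0.07 with both (n = 5). The cyclins and Cdk1 averaged 4.804 ± 0.52, 4.57 ± 0.14, 4.85 ± 0.20 and 4.76 ± 0.12 in that order. Saline had the widest spread in both, through mouse E. The mitotic kinases and checkpoint genes averaged 4.42 ± 0.37, 4.28 ± 0.19, 4.498 ± 0.08 and 4.31 ± 0.12, and the spindle and cytokinesis genes 4.75 ± 0.31, 4.63 ± 0.17, 4.88 ± 0.20 and 4.78 ± 0.11. Mki67 and Top2a together averaged 5.96 ± 0.80, 5.48 ± 0.49, 6.12 ± 0.28 and 5.73 ± 0.19. Without mouse E the saline means of these 5 roles were 6.83, 4.58, 4.27, 4.61 and 5.63, each below the arsenite mean of the same role. Cdc20 and Ube2c, which mark mitotic cyclins for destruction, averaged 6.74 ± 0.58 with saline (6.51 without mouse E), 6.64 with dexamethasone, 6.85 with arsenite and 6.91 with both.

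Markers of blood cells were read in the same mice, without a test. The T cell list averaged 5.76 ± 1.11 with saline (n = 5), 4.91 ± 0.20 with dexamethasone (n = 5), 5.43 ± 0.23 with arsenite (n = 4) and 4.82 ± 0.29 with both (n = 5). Without mouse E the saline mean was 5.27 ± 0.24 (n = 4). The B cell list averaged 5.92, 5.05, 5.76 and 4.75 in that order, and 5.60 with saline without mouse E. The thymocyte list averaged 5.24 ± 1.34 with saline, through mouse E, and 4.41 to 4.66 in the other 3 injected groups. The neutrophil list averaged 8.91 ± 0.96 with saline, 7.55 ± 0.32 with dexamethasone, 9.40 ± 1.34 with arsenite and 8.10 ± 1.39 with both, and 9.09 ± 1.00 with saline without mouse E. The part of these cells in the levels of the replication genes was not tested.

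**Figure D3:**
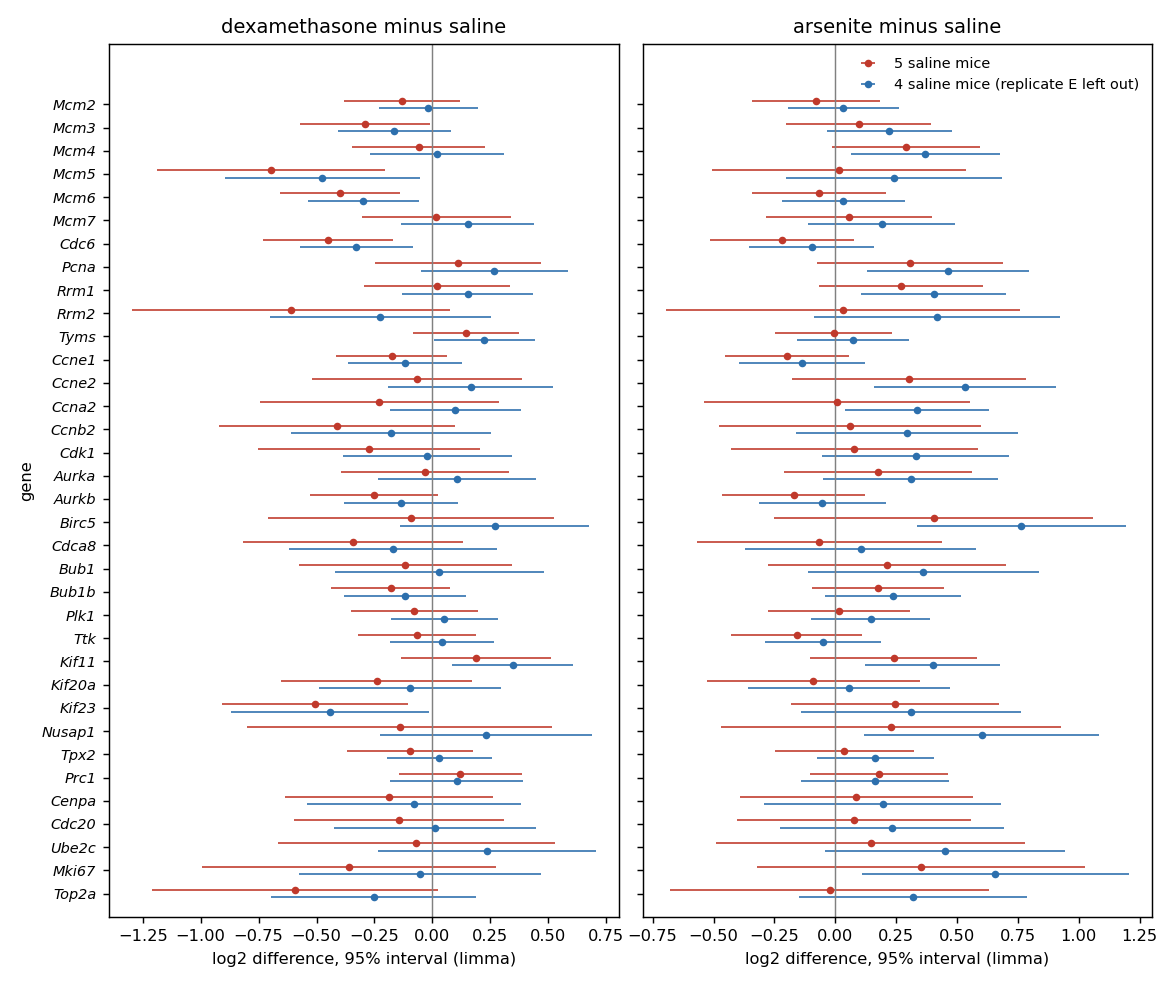
Log2 difference with its 95% confidence interval from limma (x axis) of each of the 35 genes (y axis), for dexamethasone less saline (left) and arsenite less saline (right), with all 5 saline mice (red) and without mouse E (blue). Leaving mouse E out moves nearly all points to the right: 29 red but 17 blue points lie below 0 on the left, and 25 red and 31 blue points lie above 0 on the right.

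For arsenite against saline at 8 h, the same mouse decided what was seen. Birc5, or survivin, a partner of the Aurora B kinase at the centromere, was at 4.40, 4.02, 4.43, 6.04 and 4.09 in saline mice B, C, D, E and F, and at 4.82, 5.19, 4.87 and 5.13 in arsenite mice A, B, C and F. All 4 arsenite mice lay above 4 saline mice and below mouse E. The difference was 0.40 (SE 0.31, limma adjusted p = 0.85), and 0.76 without mouse E (SE 0.20, limma adjusted p = 0.48). Mki67 was at 5.29, 5.13, 5.35, 6.99 and 6.07 with saline and at 6.00, 5.77, 6.11 and 6.58 with arsenite. It differed by 0.35 (SE 0.32), and by 0.66 (SE 0.26) without mouse E, where saline mouse F still lay within the arsenite range. Pcna, the sliding clamp, differed by 0.31 (SE 0.18), and by 0.46 (SE 0.16) without mouse E.

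By limma 0 of the 35 genes passed for arsenite against saline, and so did 0.0% of all probe sets. None reached an unadjusted p under 0.05, where 6.72% of all probe sets and 8.38% of all genes by brightest probe set did. None passed the rank product, where 0.691% of all probe sets did. In all, 25 genes were higher and 10 lower, with a median of 0.08. Without mouse E, 31 were higher and 4 lower. By limma 0 still passed, where 0.00222% of all probe sets did, and 9 were higher at an unadjusted p under 0.05, where 8.18% of all probe sets were under it. The rank product then called Birc5 higher, with a false-positive share of 0.032 (0.713% of all probe sets passed). In 8 genes all arsenite mice then lay above all 4 saline mice, or 22.9% of the 35 against 6.29% of all genes. They were Mcm4, Pcna and Rrm1 of replication, Ccna2 (cyclin A2), the kinase Aurka, Birc5, and the spindle genes Kif11 and Nusap1. With mouse E in place the groups did not overlap in 0 of the 35 genes, against 3.32% of all genes. Mouse E was left out after its high values in these same genes were seen, so the excess over all genes is not a test. Without mouse E only 1 batch held both groups. Nusap1, which bundles spindle microtubules, differed by 0.60 (SE 0.23) without mouse E, while its second, dim probe set differed by -0.02.

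The array batches bear on this comparison. The array file names carry 5 batch letters, 11 arrays each, and each batch held mice of many groups. In the 35-gene mean the last batch lay 0.10 below the group means on average, with 8 of its 10 mice below their group's mean and 7 of them the lowest of their group, and the other 4 batches lay 0.01 to 0.04 above. The narrowest kept arrays were also in the last batch. They were AIN 10 ppb water mouse D (SD 2.29), LRD 10 ppb food mouse D (2.30), LRD control mouse F (2.31), dexamethasone mouse C (2.31) and mouse A given both agents (2.305). Each was the lowest of its group in the 35-gene mean. Dexamethasone mouse C was also the lowest of its group for Mcm5 (5.47), Mcm6 (7.35), Rrm2 (4.79) and Top2a (5.02). The part of array quality was not tested. Only 2 batches held both saline and arsenite mice, and within them the 35-gene mean differed by -0.53 (the batch with saline mouse E) and by 0.32. With the batch as a term in the fit Birc5 differed by -0.0018 and Pcna by -0.03 for arsenite against saline, and with mouse E also left out Birc5 differed by 0.61 (limma adjusted p = 0.72). For dexamethasone against saline, 3 batches gave differences of -0.96 to 0.43.

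The next comparison set dexamethasone with arsenite against arsenite alone. The levels leaned lower, in 25 of 35 genes, and 0 passed by limma, where 0.622% of all probe sets did. Kif23 alone reached an unadjusted p under 0.05 (10.2% of all probe sets and 13.1% of all genes by brightest probe set did). The rank product called none (2.64% of all probe sets). Kif23 was at 5.83, 5.97, 6.77 and 6.68 with arsenite and at 5.95, 5.73, 5.79, 5.71 and 5.70 with both. The difference of -0.54 (SE 0.20, limma adjusted p = 0.31) had arsenite mice C and F as its high values, and the groups overlapped. Mcm5 was at 6.75, 6.86, 6.89 and 6.90 with arsenite, and at 6.64, 6.17, 6.47, 6.38 and 6.32 with both. All 5 mice given both lay below all 4 given arsenite, the 1 gene of the 35 (2.86%, against 5.86% of all genes) of which this held, yet its difference of -0.45 had an SE of 0.25 and a limma adjusted p of 0.59. Mki67 differed by -0.52 (SE 0.32). The mean difference over the 35 genes was -0.14, and -0.0277 with the array batch as a term. With saline mouse E out of the shared fit, Birc5, Mcm5, Mcm3 and Kif23 were under an unadjusted p of 0.05 (11.0% of all probe sets) and 0 passed (0.884%).

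Adding arsenite to dexamethasone gave values that leaned the other way, higher in 27 of the 35 genes. By limma 0 passed, as did 0.0% of all probe sets, and the rank product called none (0.429% of all probe sets). Cdc6, dim in these lungs, alone reached an unadjusted p under 0.05, where 2.28% of all probe sets did. It was at 3.80, 3.52, 3.39, 3.70 and 3.64 with dexamethasone and at 3.78, 4.03, 3.94, 3.92 and 3.98 with both, so that 4 of the 5 mice given both lay above all dexamethasone mice (difference 0.32, SE 0.13). Ccnb2, or cyclin B2, differed by 0.46 (SE 0.24), Rrm2 by 0.46 (SE 0.33) and Cdk1 by 0.37 (SE 0.23). With saline mouse E out of the shared fit, these 3 and Cdc6 were under an unadjusted p of 0.05 (2.72% of all probe sets) and 0 passed (0.0%). These last 2 comparisons share the mice given both agents, and both of them share a group with a comparison against saline. The interaction of the agents, the arsenite difference with dexamethasone less that without it, had 0 of 35 passing by limma (0.0% of all probe sets). Again Cdc6 alone was under an unadjusted p of 0.05 (3.79% of all probe sets), at 0.54 (SE 0.19), and this interaction was not run as a rank product. Without saline mouse E, Cdc6 was at 0.42 (SE 0.16), Pcna at -0.51 (SE 0.21) and Birc5 at -0.71 (SE 0.27), the 3 genes then under that p (5.38% of all probe sets). In that fit 22 genes were lower and 13 higher, with a mean of -0.12, and 0 passed (0.0%).

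Chronic arsenite on AIN-76A was the study's main exposure. With 10 ppb in water, 20 genes were higher and 15 lower than in controls, and 0 passed by limma, as did 0.0% of all probe sets. At an unadjusted p under 0.05 there were 3, where 9.27% of all probe sets were. Ccne1, or cyclin E1, was at 4.49, 4.50, 4.37, 4.35 and 4.10 in the 5 controls and at 5.11, 4.47 and 5.03 in exposed mice A, C and D. Mice A and D lay above all controls and mouse C within them (difference 0.51, SE 0.18, limma adjusted p = 0.51). Without mouse C the difference was 0.71 and passed (limma adjusted p = 0.044). This call rested on mice A and D alone, and the array of mouse D was the narrowest of the 52 not of low quality (SD 2.29). On other narrow arrays Ccne1 was the highest of its group in LRD control mouse F (5.145) and LRD 10 ppb food mouse D (4.92). The same held in mouse A given both agents (4.67), but not in dexamethasone mouse C (4.61, against 4.65 in mouse B). The part of array quality was not tested. Ccna2 was at 5.25, 5.05, 4.94, 5.18 and 5.10 in controls and at 5.74, 5.30 and 5.37 in exposed mice, again highest in mouse A. This was the 1 gene of the 35 whose groups did not overlap (2.86%, against 2.8% of all genes), and it differed by 0.36 (SE 0.13, limma adjusted p = 0.51). Among the 50 mice whose ranges are given above, mouse A was the highest for the thymocyte (5.37), T cell (6.15), B cell (7.37) and fat (8.19) lists and the lowest for the endothelial list (9.61). Its skeletal muscle list was at 10.22, where these 50 mice had a median of 4.32 and a highest of 10.96. The part of these cells was not tested. Kif20a, a kinesin of cytokinesis that was dim here, was at 3.42 to 3.52 against 3.49 to 4.11 in controls. The rank product called none of the 35 (0.284% of all probe sets).

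Mouse E of this group decided the direction of these values. With it in the fit, all 35 genes were higher, the mean difference was 0.77 in place of -0.0077, and 22 genes were under an unadjusted p of 0.05, where 13.2% of all probe sets were. By limma 0 passed even then (0.0% of all probe sets), the lowest adjusted p being 0.20, and the group SD of the 35-gene mean was 1.57 in place of 0.23. The rank product called none of the 35 with mouse E either (0.435% of all probe sets).

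With 10 ppb in food, 22 genes were higher and 13 lower, within -0.11 to 0.27, and 29 of the 35 confidence intervals lay within 0.5 of 0. By limma 0 passed (0.0% of all probe sets) and the rank product called none (0.144%). Mcm6 alone was under an unadjusted p of 0.05 (2.53% of all probe sets), at 8.18 ± 0.15 (SD, n = 5) against 8.01 ± 0.08 (n = 5). Ccne1 (0.27, SE 0.15), Cdk1 (0.24, SE 0.16) and Ccna2 (0.20, SE 0.12) had the largest differences.

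With 100 ppb in water, 29 genes were lower and 6 higher. By limma 0 passed (0.0% of all probe sets), and the rank product called none (0.0266%). Birc5, Top2a and Kif20a were under an unadjusted p of 0.05 (2.6% of all probe sets). Top2a was at 5.99, 4.92 and 6.12 in exposed mice A, C and D and at 5.96 to 6.35 in the controls. The difference was -0.52 (SE 0.21, limma adjusted p = 1.0), and -0.14 without mouse C, the only one below the controls. Birc5 was at 4.46, 4.19 and 4.61 against 4.35 to 5.09 in controls (difference -0.47, SE 0.21). Nusap1 differed by -0.56 (SE 0.31), and by -0.28 without control mouse E, which was at 7.13 against 5.56 to 5.87 in the other controls. Mki67 was also lowest in mouse C, at 5.08 against 6.17 in mouse A and 5.60 in mouse D. The neutrophil list averaged 10.56 in mouse C, the highest of these 50 mice, against 7.43 in mouse A, 9.58 in mouse D and 6.75 to 9.79 in the controls. The T and B cell lists were at 4.83 and 4.66 in mouse C, below all controls, and the part of these cells was not tested. Within the 3 batches holding both groups the 35-gene mean differed by -0.45 to 0.08.

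On LRD, the differences between exposed and control mice were small. The range over the 35 genes was -0.30 to 0.26 with 10 ppb in food, -0.28 to 0.33 with 10 ppb in water and -0.34 to 0.30 with 100 ppb in water, and in each the median was within 0.02 of 0. All 35 confidence intervals lay within 1 of 0 in each comparison. By limma 0 passed in all 3, as did 0.0% of all probe sets, and the rank product called none, where it called 0.173%, 0.118% and 0.202% of all probe sets. Under an unadjusted p of 0.05 were Bub1b with food, none with 10 ppb in water, and Bub1b and Kif11 with 100 ppb in water. In that order 2.6%, 3.62% and 3.57% of all probe sets were under it. Kif11 was dim (mean 3.55 over the 51 mice).

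Bub1b, a component of the spindle checkpoint, was at 5.46, 5.42, 5.28 and 5.37 in the 4 LRD controls. In the mice given 10 ppb in food it was at 5.65, 5.69, 5.57, 5.64 and 5.68. These groups did not overlap, in 1 of the 35 genes (2.86%, against 0.792% of all genes), and the difference was 0.26 (SE 0.11, limma adjusted p = 1.0). With 100 ppb in water it was at 5.76, 5.39 and 5.85. In that comparison Mcm6 and Mcm7 did not overlap and were higher (5.71% of the 35 genes, against 4.94% of all genes). Mcm6 was at 8.27, 8.25 and 8.20 against 8.03 to 8.14, and Mcm7 at 8.48, 8.72 and 8.49 against 8.26 to 8.41. With 10 ppb in water the 3 largest differences were in Bub1 (0.33, SE 0.22), Cdca8 (-0.28, SE 0.15) and Aurkb (0.21, SE 0.17). Bub1 is a checkpoint kinase and Cdca8 a subunit of the Aurora B complex. Aurkb, the kinase of that complex, was dim (mean 3.58 over the 51 mice).

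The diets differed little in these genes. Averaged over the control and exposed groups, LRD less AIN-76A was higher in 29 of 35 genes and lower in 6, where 52.3% of all genes were higher. The median was 0.04 and all 35 confidence intervals lay within 0.5 of 0. By limma 0 of 35 passed, where 0.158% of all probe sets did, and Bub1b (0.17, SE 0.06) and Mcm6 (0.10, SE 0.04) were under an unadjusted p of 0.05 (4.09% of all probe sets). In control mice alone Bub1b differed by -0.0081. Mcm5 differed by 0.17 (SE 0.09) and Ccne2, or cyclin E2, by 0.14 (SE 0.09). With AIN 10 ppb water mouse E included, 34 of the 35 differences were negative, with a mean of -0.16, 0 genes passed (0.16% of all probe sets) and 0 were under an unadjusted p of 0.05 (4.21%). The diet average and its interactions were not run as rank products.

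Whether the diets differed in their response to arsenite was tested by 3 interaction terms, each the exposed less control difference on LRD less that on AIN-76A. By limma 0 of 35 passed in each, as did 0.0% of all probe sets. Under an unadjusted p of 0.05 were 0, 3 and 3 genes for 10 ppb in food, 10 ppb in water and 100 ppb in water, where 2.25%, 10.8% and 2.84% of all probe sets were. For 10 ppb in water they were Ccne1 (-0.71, SE 0.25), Ccna2 (-0.58, SE 0.19) and Kif20a (0.39, SE 0.16), with limma adjusted p values of 0.45 each. For 100 ppb in water they were Prc1, which bundles midzone microtubules (0.45, SE 0.20), Bub1b (0.39, SE 0.17) and Kif20a (0.38, SE 0.17). These terms use the same AIN-76A mice as the comparisons above.

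AIN 10 ppb water mouse E also bore on comparisons that do not use its group, since all chronic groups share 1 estimate of the spread. With it in the fit the differences of the other 5 exposures stayed as they were and their standard errors grew. The confidence intervals within 1 of 0 then numbered 28 and 18 of 35 for 10 ppb in food and 100 ppb in water on AIN-76A, and 28, 23 and 17 for 10 ppb in food, 10 ppb in water and 100 ppb in water on LRD. In these 5 comparisons 0 genes passed by limma (0.0% of all probe sets) and 0 were under an unadjusted p of 0.05, where 2.25%, 2.18%, 2.35%, 3.27% and 3.15% of all probe sets were. The diet by 10 ppb water term was then lower in all 35 genes, with a mean of -0.76. Of these, 0 passed by limma, and Ccne1, Ccna2 and Cdca8 were under an unadjusted p of 0.05, where 11.3% of all probe sets were. For the diet terms of 10 ppb in food and 100 ppb in water 0 genes were under it, where 1.98% and 2.45% of all probe sets were.

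**Figure D4:**
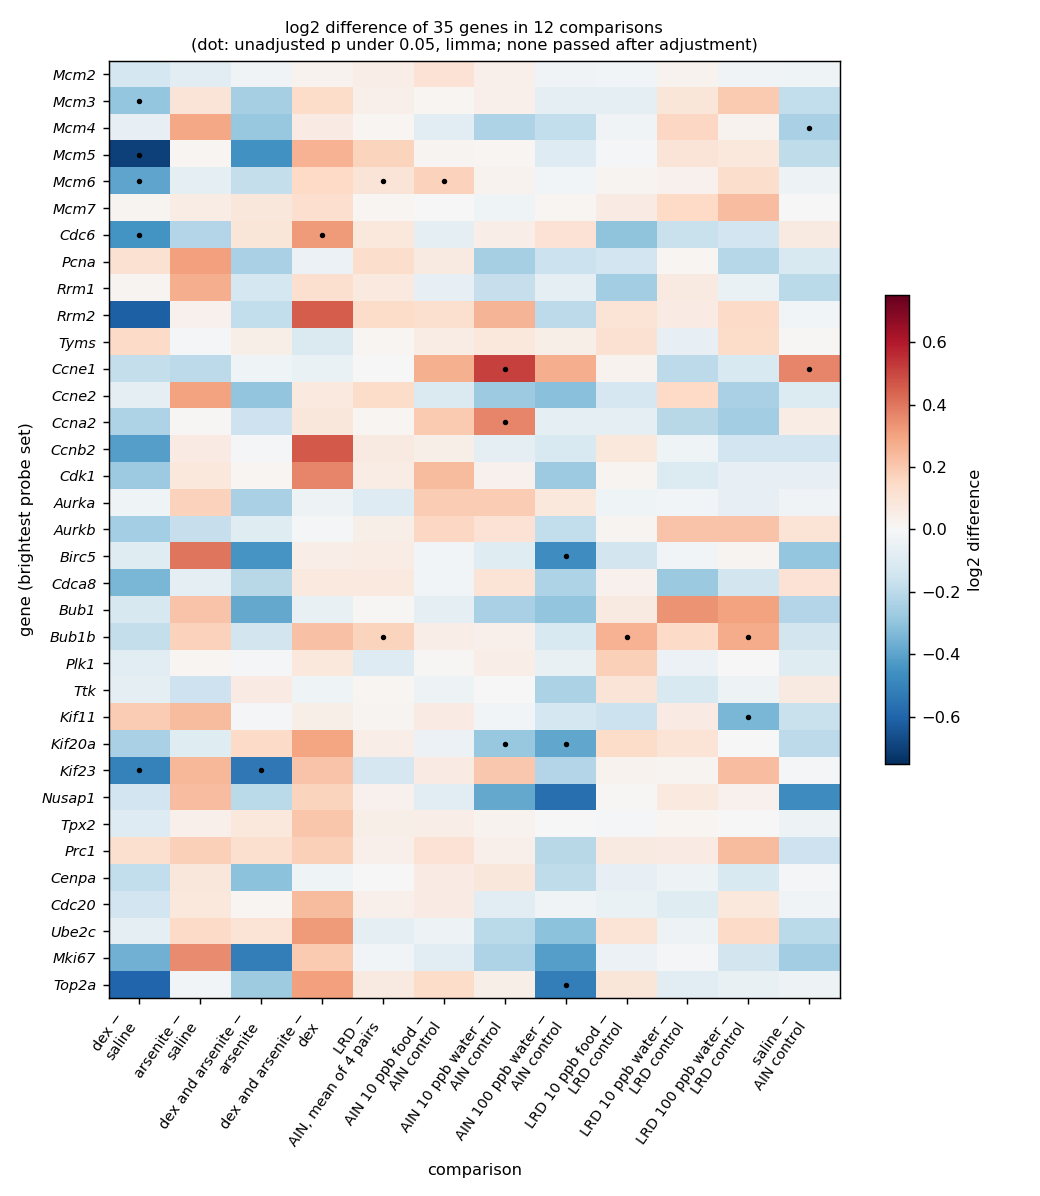
Log2 difference of each of the 35 genes (y axis, in order of role) in 12 comparisons (x axis) as a colour, from lower (blue) to higher (red), with a dot at an unadjusted limma p under 0.05. The dexamethasone less saline column is mostly blue (29 of 35 lower) with 5 dots, arsenite less saline is mostly red (25 of 35 higher) with none, and the LRD exposure columns are pale, between -0.34 and 0.33.

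The injection itself was compared through saline against uninjected AIN controls. In all, 27 genes were lower and 8 higher, 0 passed by limma (0.0% of all probe sets) and the rank product called none (0.58%). Ccne1 (0.36, SE 0.12) and Mcm4 (-0.25, SE 0.11) were under an unadjusted p of 0.05 (5.72% of all probe sets). Ccne1 was at 4.71, 4.74, 4.35, 4.96 and 4.86 with saline, where 4 of the 5 mice lay above every control (4.10 to 4.50). Mcm4, another helicase subunit, was at 7.87, 7.91, 7.90, 8.32 and 8.01 with saline and 8.05 to 8.47 in controls. Only mouse E lay within the control range, so without it the groups did not overlap for this 1 gene (2.86% of the 35, against 2.19% of all genes). Without mouse E the mean over the 35 genes was 0.26 below control, and the rank product called Nusap1 (false-positive share 0.022) and Birc5 (0.047) lower, where it called 0.495% of all probe sets. For Nusap1 the uninjected control mouse E was at 7.13, against 5.56 to 5.87 in the other controls.

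Genes around the programme were read from lists of 132 further genes, of which 126 were measured. They comprised 37 further replication genes, 55 further mitosis genes, 16 regulators of the programme such as the E2F and Myb factors, 8 G1 cyclins and kinases and 10 inhibitors of proliferation. In the main fits of the 16 comparisons 1 gene passed once, for both agents against arsenite, where 0.622% of all probe sets did. Ccnd2, or cyclin D2, which carries growth signals into G1, was at 9.84, 9.82, 10.01 and 9.99 with arsenite and at 9.17, 9.45, 9.675, 9.48 and 9.44 with both agents. The groups did not overlap, and Ccnd2 was lower with both by 0.47 (log2 difference -0.47, SE 0.10, limma adjusted p = 0.041). It lost this call with the batch as a term (-0.44), with the arrays centred on the median, and when any 1 of 8 of the 9 mice was left out (-0.50 to -0.40). With saline mouse E out of the shared fit, 1 further mitosis gene passed as higher and 1 G1 gene as lower in this comparison (0.884% of all probe sets passed).

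For dexamethasone against saline 0 of the 126 genes passed by limma, where 0.626% of all probe sets did. Under an unadjusted p of 0.05 were 19, where 9.05% of all probe sets and 11.8% of all genes by brightest probe set were. Ccnd2 differed by -0.32 (SE 0.10, limma adjusted p = 0.20) and Ccnd3, the D cyclin of lymphocytes, by -0.61 (SE 0.19, limma adjusted p = 0.22). Tob1, an antiproliferative gene, differed by 0.45 (SE 0.14, limma adjusted p = 0.20). The 37 further replication genes had a median of -0.17 (26 lower, 11 higher) and the 55 further mitosis genes one of -0.13 (40 lower, 15 higher). Without saline mouse E these medians were -0.08 and -0.02. For arsenite against saline without mouse E, 46 of the 55 mitosis genes were higher and 9 lower, and none passed. The factors E2f1 and Foxm1, which drive the replication and mitotic waves, differed by -0.09 and 0.05 for dexamethasone against saline. For arsenite against saline they differed by -0.0038 and 0.02, and the standard errors were 0.10 to 0.14. In AIN 10 ppb water mouse E, highest in the cell cycle genes, E2f1 was at 5.47, within the AIN controls (5.385 to 5.71). Foxm1 was at 5.23 there, below mouse A given both agents (5.35). Saline mouse E had E2f1 at 5.06 and Foxm1 at 4.69. LRD 10 ppb water mouse C, on an array of low quality, had 6.33 and 5.36. The 16 regulators together averaged 6.64 in AIN 10 ppb water mouse E, against 5.46 to 5.80 in the 50 other mice. This list averaged 5.73 in saline mouse E and 5.81 in LRD 10 ppb water mouse C. The E2f1 and Foxm1 probe sets did not always rise with the cell cycle genes. Their small differences therefore cannot show whether E2f1 and Foxm1 changed.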

How the data were processed

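Total RNA from frozen whole lung was hybridised to 1 array per mouse. The authors deposited log2 values from robust multiarray average (RMA) processing, which subtracts background, quantile-normalises and summarises probes into probe sets, with no low-value filter. Which arrays were normalised together is not given in the sources used here. Groups were taken from the sample labels. The 64 control probe sets among 45101 were dropped. The other 45037 entered limma 3.58.1 (R 4.3.3), in separate fits for the injected mice, the chronically exposed mice, and saline against AIN control. Benjamini-Hochberg adjusted p values under 0.05 over all probe sets passed. Shares of all probe sets also cover dim and unnamed ones, whereas each gene was read through its brightest probe set. By brightest probe set, the share of all genes under an unadjusted p of 0.05 was 10.5% for AIN 10 ppb water, 1.85% for AIN 10 ppb food and 5.19% for diet. The rank product used 100 random orderings and the same threshold on the false-positive share. The study's methods give a p under 0.05 for it, so the calls here cannot be set against the study's lists. Both were run on simulated data with planted changes. The simulation for the rank product gave every probe set the same spread, so it cannot show how that test treats probe sets that vary widely between mice. Gene names came from GEO's platform annotation, in which 34945 probe sets have 1 symbol, 932 several and 9160 none. Promoters are RefSeq windows of 250 bases. Figures and sums used Python 3.11.15.

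The named genes were, in each comparison, the members past the threshold or the 3 with the largest difference, with Mki67, Top2a, Cdk1, Mcm5 and Rrm2 as fixed examples. Others were named after their values were seen, because they were the only ones under an unadjusted p of 0.05 or without overlap. The members, the gene lists and the tests were chosen with earlier results of these data known. Alternatives were a filter on dim probe sets (log2 5 or more in 4 arrays), the array batch or replicate letter as a block, centring each array on its median, 1 fit over all groups, the arrays left out put back, and leaving out each mouse in turn. The number of arrays limits the precision. Labels do not say whether mice shared cages or litters, so p values measure the spread between these mice. Replicate letters do not pair mice: deviations from the group means had a median correlation of 0.01 between mice of the same letter and -0.0073 between others.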

Additional observations from a re-analysis of the deposited data

Results flagged for a closer look

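In the mean of the 35 genes, single mice stood apart from their group, by the gap to the nearest mouse over the group's range (Dixon's test), in 4 groups of all arrays. AIN 10 ppb water mouse E was at 8.76, with the others of its group at 5.38 to 5.83. LRD 10 ppb water mouse C was at 7.27, against 5.57 to 5.76. Saline mouse E was at 6.26, against 5.25 to 5.54. These 3 are the mice with high thymocyte markers. Arsenite injection mouse E, on an array of low quality, was at 4.7, against 5.57 to 5.84. Of the single genes named as examples, Top2a stood apart in arsenite injection mouse F, at 6.47 against 6.0 to 6.04. In all, 5 of 56 groups tested were marked in this way, and chance marks about 1 in 20.

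The arrays of AIN 10 ppb water mouse E and LRD 10 ppb water mouse C lay outside the tests. Their means of 8.76 and 7.27 exceeded the control mice on the same diets, which lay at 5.50 to 5.78 and 5.49 to 5.75.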

How the results depend on the processing

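The count of genes passing was 0 in every comparison and stayed at 0 in 349 of 355 alternative counts. It was 1 for dexamethasone against saline in 1 fit over all 12 groups (Mcm6) and by the rank product (Mcm5), and 0 to 1 when mice were left out in turn (Mcm6, without saline mouse D). For AIN 10 ppb water it was 0 to 1 (Ccne1, without mouse C). By rank products without saline mouse E, chosen after seeing the data, it was 1 for arsenite against saline and 2 for saline against control. Without saline mouse E the mean over the 35 genes went from -0.19 to -0.02 for dexamethasone and from 0.09 to 0.26 for arsenite against saline, and to -0.12 for their interaction, and 17 genes in place of 29 were lower with dexamethasone. The mean moved by more than the spread between mice in these settings: with dexamethasone and arsenite against arsenite, to -0.0277 with the batch as a block and 0.0518 with the arrays of low quality; with AIN 10 ppb water mouse E, to -0.16 for diet, 0.77 for AIN 10 ppb water and -0.76 for the diet by 10 ppb water term. With the arrays of low quality, or with LRD 10 ppb water mouse C alone (chosen after seeing the data), it moved to 0.33 for LRD 10 ppb water and 0.34 for that term.

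Genes turned sign as follows in the comparisons they were named for. For arsenite against saline with the batch as a block, Birc5 was at -0.0018, Pcna at -0.0254 and Nusap1 at -0.13. With the arrays of low quality Pcna was at -0.80, and Mcm5 and Ccnd2 were at 0.0822 and 0.32 for both agents against arsenite. For diet, AIN 10 ppb water mouse E gave -0.0073 for Bub1b, -0.0206 for Mcm5 and -0.0799 for Ccne2, and control mice alone gave -0.0081 for Bub1b. It gave 0.60 for Nusap1 and 0.50 for Kif20a for AIN 10 ppb water, and -0.22 for Bub1 in the diet by 10 ppb water term. Cdca8 was at 0.43 for LRD 10 ppb water with the arrays of low quality, and likewise with mouse C alone. The cause was not tested. With the replicate letter as a block, the mean over the 35 genes was -0.24 for dexamethasone and 0.10 for arsenite against saline. The replicate block changed no call of the 35 genes, and Ccnd2 lost its call (-0.51). With 3 to 5 mice a group and standard errors of 0.08 to 0.25 at the median gene, small differences were not detectable.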
